A study of Homo sapiens with 12 samples.

Results

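ZR-75-1 is a human breast cancer cell line that expresses the oestrogen receptor (ER), and abemaciclib is an inhibitor of the cyclin-dependent kinases CDK4 and CDK6. The response described here is that of ZR-75-1 cells with an intact *RB1* gene. It was read from 3 RNA sequencing libraries of cells kept for 5 days in 500 nM abemaciclib and 3 libraries of cells kept as long in an equal volume of the solvent, DMSO. All 6 came from cells that had received Cas9 with a non-targeting guide RNA (sgControl). They are 6 of the 12 libraries in the series. The other 6 repeat the design in cells whose *RB1* had been disrupted with Cas9, and they enter below only where the responses of the genotypes are compared. Knockout cells were clones grown from single sorted cells, so that a difference between genotypes cannot be told apart from a difference between lines. All cells grew in the same medium with serum. Whether the sgControl cells are a clone or a pool is not given in the sources used here.

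Cyclin D with CDK4 or CDK6 phosphorylates Rb, the product of *RB1*, and so frees the E2F transcription factors that Rb holds. With the kinases inhibited, Rb stays bound to E2F at the promoters of genes for DNA replication, and a complex of the Rb relatives p107 and p130 with MuvB holds down genes for mitosis. Luminal breast cancer cells treated in this way stop in G1 but remain metabolically active. The questions here are which other programs rise and fall in that state, by how much, and in how many of their genes.

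The sgControl libraries held between 57382237 and 81636393 counts and those of the knockout between 39907318 and 54092121. Normalized counts, used throughout, are counts divided by a size factor per library. Within the abemaciclib group the libraries differed from each other by a median of 0.086 to 0.091 on the log2 scale over genes with adequate counts. DMSO replicates 2 and 3 differed by 0.087. DMSO replicate 1 stood apart from them, by 0.163 and 0.214, and held 9.04% of its counts in transcripts of ribosomal proteins against 7.24 and 6.70%. Libraries of different treatments differed by 0.403 to 0.453. Leaving DMSO replicate 1 out moved the number of genes called from 11305 to 11367, of which 10486 were among the genes called with all libraries. No pair of replicates was close enough to be 1 library deposited again.

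*RB1* itself, at chr13:48303744-48599436 (GRCh38, GENCODE v44), held 4154, 4825 and 4752 normalized counts in DMSO and 2252, 2375 and 2489 in abemaciclib. It was lower in every treated library, with a log2 fold change of -0.95 ± 0.083 (SE, adjusted p = 3.53e-29). In the knockout it held 46.8 ± 6.3 in DMSO and 54 ± 9.7 in abemaciclib (mean ± SD, n = 3). All 9 luminal epithelial markers were present. Among markers of other cells, *TP63* (basal), *COL1A2*, *COL3A1* and *THY1* (fibroblast), *PTPRC*, *CD3E* and *HBB* (blood) and *PECAM1*, *CDH5*, *KDR* and *TEK* (endothelium) were at 3 counts or fewer in each of the 6 libraries. The summed level of the 7 blood markers nonetheless went from between 47.6 and 66.1 to between 450.5 and 550.8 normalized counts. In abemaciclib almost all of it was *LYZ*, which encodes lysozyme and held 438, 534 and 544, against 33.5, 16.7 and 22.7 in DMSO. Of 4 blood markers tested, 1 rose and 2 fell. The summed level of the 7 fibroblast markers went from 2122 to 2418 in DMSO to between 2889 and 3102, mostly *COL1A1*. Basal markers were not absent: 5 of 6 exceeded 3 counts in some library. The basal list summed to 807.6 to 989.5 normalized counts in DMSO and 761.9 to 842.2 in abemaciclib. By gene, 1 rose and 2 fell of 6 basal markers tested, and 4 were at 3 counts or fewer in every library of a group. The 5 endothelial markers summed to between 21.4 and 38.4 in DMSO and between 91.2 and 101.3 in abemaciclib.

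Abemaciclib changed the level of 11305 of 22723 genes tested (49.8%) at an adjusted p-value under 0.05, 5675 of them upwards (25%) and 5630 downwards (24.8%). Fewer than these were large: 2203 (9.7%) rose and 2174 (9.57%) fell by at least 2-fold. Among the 11793 genes with a mean of at least 100 normalized counts, 8559 were called (72.6%), 4219 higher (35.8%) and 4340 lower (36.8%). In 71.9% of the 11793, and in 55.8% of all genes tested, the 3 treated and 3 control libraries did not overlap. The counts of lists below are to be read against these shares, those at a mean of 100 for well expressed genes. At a change of at least 4-fold the balance leaned downwards, with 336 genes lower and 220 higher. The median log2 fold change of all genes tested was 0.053, with genes at 3 counts or fewer in every library of a group set at the bound that 3 counts per library allow. List medians below were computed in the same way. Scaled by total counts instead, the median fitted log2 fold change of all genes was -0.124 rather than 0.006, and 4532 genes were called higher against 6779 lower, so directions are relative to the size factors used. Of 14870 protein-coding genes tested, 4617 rose and 4913 fell. Of 1434 long non-coding RNAs, 292 rose and 178 fell.

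**Figure D1:**
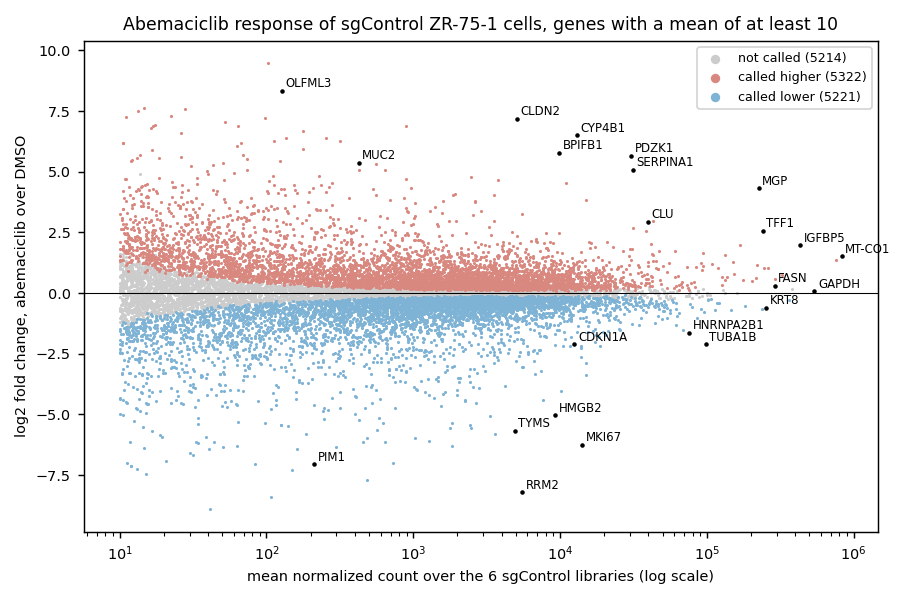
Mean normalized count over the 6 sgControl libraries (x axis, log scale) against the log2 fold change of abemaciclib over DMSO (y axis). Points are the genes tested with a mean of at least 10 normalized counts, and called genes are coloured by direction. Calls lie on both sides of 0 at every level above about 100 counts, and the 336 genes lower and 220 genes higher by at least 4-fold at a mean of at least 100 form the outer fringes.

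The cell cycle lists give the scale of the arrest. Of 42 S phase genes tested, 1 rose and 40 fell with a median log2 fold change of -1.28, and of 52 G2/M genes, none rose and 51 fell with a median of -2.52 (edgeR called 1 of the latter higher). In bulk RNA, fewer cells in a phase and less RNA of a gene per cell cannot be told apart. The 94 genes of both lists together held 0.928, 1.02 and 1.05% of all counts in DMSO and 0.243, 0.249 and 0.247% in abemaciclib. The groups did not overlap, and an exact two-sided permutation test gave the smallest p that 3 against 3 libraries allow, 0.1. *CCNA2*, which encodes cyclin A2, held 6467, 6563 and 6308 normalized counts in DMSO and 175, 201 and 193 in abemaciclib and fell 34.0-fold. Securin, the product of *PTTG1*, fell 43.3-fold at the mRNA level, *PCNA*, the sliding clamp of DNA polymerases, 7.02-fold, and *MCM7*, of the replicative helicase, 4.54-fold.

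Promoters of these genes carry letters known to be bound by E2F and by the MuvB complex. Windows of 250 bases before to 50 after each RefSeq start site (GRCh38.p14) were searched on both strands. For these searches, genes that fell, rose or changed by less are those with a mean of at least 100 normalized counts. Promoters were matched for 828 of 1081 such genes that fell and 704 of 977 that rose. The set of all promoters was not filtered by expression. The E2F-type letters TTTCGCGC, TTTGGCGC or TTTCCCGC stood in 18 of 43 promoters matched to S phase genes (41.86%), in 7.98% of 1253 promoters of genes that fell at least 2-fold, in 1.11% of 1079 promoters of genes that rose at least 2-fold, in 4.21% of 11194 promoters of genes that changed by less, and in 2.74% of all 35116 promoters. The letters of the cell cycle homology region, TTTGAA or TTCGAA, stood in 39 of 55 promoters of G2/M genes (70.91%), against 18.2% for genes that fell, 9.55% for genes that rose, 10.63% for genes that changed by less and 16.35% of all. CCAAT, the box bound by NF-Y, was in 70.91% of G2/M, 60.47% of S phase and 34.61% of all promoters, and in 34.97% of those of genes that changed by less than 2-fold. These are matches of letters, not measured binding. The stretches below, 5′ to 3′ on the gene's strand, show promoters of 4 genes that fell far, with the matches in capitals (ATTGG is CCAAT read on the other strand, and GCGGGAAA is TTTCCCGC so read). They are followed by the promoter of *GAA*, a lysosomal gene that rose, with the letters TCACGTGA of the element that MiT/TFE factors bind.
MKI67, chr10:128126424-128126543, minus strand: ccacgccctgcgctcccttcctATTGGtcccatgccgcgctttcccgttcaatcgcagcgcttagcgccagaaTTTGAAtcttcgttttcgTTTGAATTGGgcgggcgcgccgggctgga
TYMS, chr18:657573-657652, plus strand: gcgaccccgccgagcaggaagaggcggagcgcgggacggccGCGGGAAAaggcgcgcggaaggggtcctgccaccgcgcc
KIF20A, chr5:138178992-138179111, plus strand: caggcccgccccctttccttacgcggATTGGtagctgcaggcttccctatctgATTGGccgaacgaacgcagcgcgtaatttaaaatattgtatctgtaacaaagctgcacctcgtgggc
CENPA, chr2:26785916-26786055, plus strand: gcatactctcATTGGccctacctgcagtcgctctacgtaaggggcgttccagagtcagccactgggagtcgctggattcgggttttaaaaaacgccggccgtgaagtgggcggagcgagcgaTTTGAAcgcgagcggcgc
GAA, chr17:80101481-80101580, plus strand: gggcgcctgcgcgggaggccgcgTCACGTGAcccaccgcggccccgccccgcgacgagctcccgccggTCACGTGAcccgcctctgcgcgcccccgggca

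The 20 genes that rose most were taken among called genes with a mean of at least 100 and no overlap between groups. Those reported are given here by what each is known to do, and their separation between the groups follows from that choice. *LSAMP* and *OLFML3* had 3 counts or fewer in each DMSO library. *LSAMP*, a neuronal cell adhesion molecule, held 0, 0 and 0.6 normalized counts in DMSO and 221, 198 and 197 in abemaciclib, a ratio of 777 with a 95% interval of 139 to 30718 from counting error alone. *OLFML3*, a secreted olfactomedin protein, held 0.9, 0.9 and 0.6 normalized counts in DMSO and 265, 257 and 242 in abemaciclib, a ratio of 321 (110 to 1562).

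Among the others were genes of epithelial surfaces and secretions. *CLDN2*, the claudin of cation- and water-permeable tight junctions at chrX:106900164-106930861, held 59.6, 92.5 and 60.5 normalized counts in DMSO and 10333, 9236 and 10829 in abemaciclib and rose 143-fold, and *PGLYRP2*, an amidase that cleaves bacterial peptidoglycan, went from 14, 20.3 and 11.3 to 2105, 1576 and 1647. *BPIFB1*, a secreted lipid-binding protein of airway mucus, held 358, 379.9 and 318 normalized counts in DMSO and 18566, 19904 and 19497 in abemaciclib (log2 fold change 5.79 ± 0.079, SE). The trefoil peptide gene *TFF2* held 3.7, 0.9 and 3.8 normalized counts in DMSO and 258, 198 and 210.5 in abemaciclib. The gel-forming mucin *MUC2* went from 25.1, 19.4 and 17 to 947, 813 and 729 normalized counts, and *GP2*, a glycoprotein released by exocrine cells, from 27, 22.9 and 29.6 to 1127, 1135 and 978. *GSDMA*, a member of the pore-forming gasdermins, held 2.8, 7.1 and 6.9 normalized counts in DMSO and 391, 328 and 333 in abemaciclib.

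Others encode protease inhibitors and proteins of lipid handling. *SERPINA1*, which encodes α1-antitrypsin, held 2057, 1882 and 1504 normalized counts in DMSO and 66404, 57199 and 59136 in abemaciclib and rose 33.6-fold. *SERPINA11*, near it on chromosome 14, went from 13, 4.4 and 7.6 to 664, 596 and 626, and *A2M*, the broad protease trap α2-macroglobulin, from 26.1, 44.9 and 38.4 to 1290.0, 1188 and 1263. *THRSP*, a nuclear regulator of fatty acid synthesis genes, held 1.9, 4.4 and 3.1 normalized counts in DMSO and 298, 218 and 288 in abemaciclib. *CYP4B1*, a fatty acid and xenobiotic hydroxylase, held 252, 329 and 272 normalized counts in DMSO and 27275, 25596 and 24032 in abemaciclib. *PDZK1*, a scaffold for transporters under the apical membrane and a known oestrogen-responsive gene, held 1030.5, 1241 and 1249.8 normalized counts in DMSO and 60812, 57655 and 61122 in abemaciclib and rose 51.0-fold. Others, given by log2 fold change ± SE, were the adaptor *SH2D3C* (4.83 ± 0.24), the non-coding RNA *LINC00867* (6.38 ± 0.34) and the α-tubulin genes *TUBA3D* (6.67 ± 0.45) and *TUBA3E* (5.46 ± 0.40), whose sequences are so alike that their reads may be split between them.

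**Figure D2:**
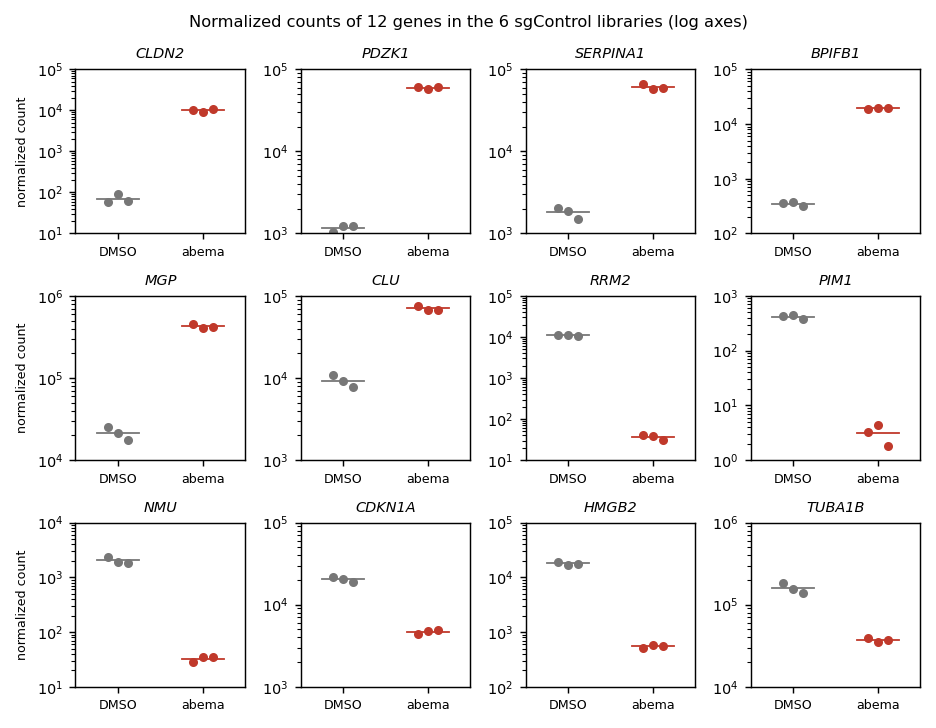
Normalized counts (y axis, log scale) of 12 genes in the 3 DMSO and 3 abemaciclib libraries of sgControl cells, a point per library and a line at the group mean. The groups are separate for each of the 12 genes, among them CDKN1A, 4.33-fold lower, RRM2, 294-fold lower, and CLDN2, 143-fold higher.

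The 20 genes that fell most were only in part cell cycle genes. Several of them serve DNA synthesis, mitosis or the E2F circuit. *RRM2*, the inducible subunit of ribonucleotide reductase, held 11138, 10909 and 10824 normalized counts in DMSO and 42, 39 and 30.8 in abemaciclib, and *TYMS*, thymidylate synthase, held 10056, 9241 and 9607 normalized counts in DMSO and 176, 196 and 194 in abemaciclib. *E2F7*, an atypical E2F that represses transcription, went from 702, 908 and 1062 to 14, 9.7 and 14.1, and the DNA glycosylase gene *NEIL3* from 1128, 1046 and 1182 to 23.7, 21.3 and 22. Mitotic kinase and motor genes fell as far: *AURKB* held 2815, 2492 and 2312 normalized counts in DMSO and 36.6, 43.4 and 30.8 in abemaciclib, and *KIF20A* held 4625, 5093 and 4917 normalized counts in DMSO and 104, 103 and 101 in abemaciclib. *MKI67* and *CCNE2* changed by -6.25 and -6.13 on the log2 scale. *TMPO-AS1*, an antisense RNA at the *TMPO* locus to which no such role is assigned here, changed by -5.98.

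The others have various known roles. *FAM20C*, the Golgi kinase of secreted proteins, held 237, 214 and 192 normalized counts in DMSO and 0, 0 and 1.8 in abemaciclib, a ratio of 338 (93.2 to 2793 from counting error). *PRIMA1*, the membrane anchor of acetylcholinesterase, held 977, 974 and 958 normalized counts in DMSO and 3.2, 7.1 and 3.5 in abemaciclib. The stereocilia motor gene *MYO3A* went from 276, 321 and 294 to 5.4, 0 and 0.9, and *CNIH2*, an AMPA receptor partner, from 4329.6, 3554 and 3056 to 39.9, 57.6 and 40.5. *PIM1*, a serine/threonine kinase that promotes survival, held 422, 449.5 and 386 normalized counts in DMSO and 3.2, 4.4 and 1.8 in abemaciclib. The axon guidance protein gene *DPYSL5* fell 129.6-fold, the complement-like synaptic organizer *C1QL1* 81.8-fold, and *NMU*, which encodes the peptide neuromedin U, 62.9-fold. *NEURL1B*, a ubiquitin ligase of the Notch ligand pathway, went from 6441, 7340.0 and 7396 to 100.2, 150.5 and 119.8. The thymosin gene *TMSB15A* fell 54.6-fold and the unnamed transcript *AL606500.1* 87.8-fold.

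**Figure D3:**
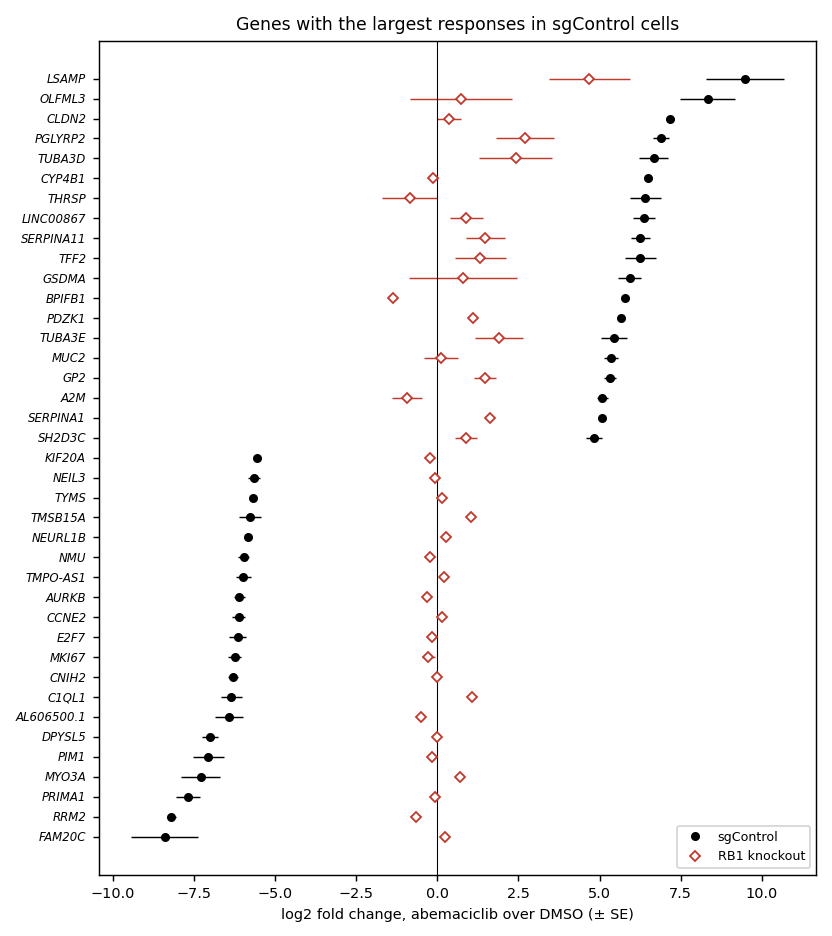
Log2 fold change of abemaciclib over DMSO for the genes that rose most and fell most in sgControl cells, with the response of the same genes in RB1 knockout cells beside it and bars for the standard error. In the knockout the responses spanned -1.38 to 4.69 for the genes that rose and -0.66 to 1.08 for those that fell. The 4.69 is that of LSAMP, which in the knockout held 0.0 normalized counts in DMSO and 5.7 ± 4.4 in abemaciclib (mean ± SD).

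The genes named from here on belong to lists, and each fold change is the ratio of the group means. Over the 238 called genes named in the text and not at the floor of counts, the standard error of the log2 fold change had a median of 0.091 and a range of 0.038 to 0.596 (3 against 3 libraries). In 237 of them no treated library overlapped a control library, which the genes with the largest changes were chosen for. Calls said to be made or lost under a setting refer to the alternatives listed in the closing section.

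The cell cycle brakes themselves were lower. Of 7 CDK inhibitors tested, none rose and 6 fell, with a median of -2.26. *CDKN1A*, the gene for p21, held 21753, 20601 and 18643 normalized counts in DMSO and 4428, 4788 and 4855 in abemaciclib (adjusted p = 1.15e-248), and *CDKN2C*, the gene for p18INK4C, held 3605, 3242 and 3209.6 normalized counts in DMSO and 433, 397 and 423 in abemaciclib. *CDKN2A* fell 8.76-fold, *CDKN2D* 4.81-fold and *CDKN1B*, the gene for p27, 1.5-fold. *CDKN2B* held 89.4, 82.8 and 107 normalized counts in DMSO and 94.8, 129 and 144 in abemaciclib and missed the threshold (adjusted p = 0.072), but was called higher without DMSO replicate 3 (log2 fold change 0.52), without abemaciclib replicate 1 (0.55), with edgeR (0.39) and with a filter at a mean of 10 (0.40). Of the drug targets, *CDK6* fell from 87.5, 126 and 110.2 to 59.3, 41.6 and 37, whereas *CDK4*, at 25055, 21531 and 19833 in DMSO and 20297, 19432 and 21258 in abemaciclib, was called lower only with total-count factors (-0.25) or without DMSO replicate 3 (-0.20). Of 10 genes of the cyclin D and E axis tested, 2 rose and 7 fell (1 and 8 with total-count factors). The 2 that rose included *CCND1*, which encodes cyclin D1 and held 61816, 69889 and 68112 normalized counts in DMSO and 148658, 156886 and 147614 in abemaciclib, a 2.27-fold rise (adjusted p = 3.53e-105), while *CCND3* fell 1.4-fold.

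Of 10 E2F and DP factors tested, 2 rose and 7 fell. *E2F8* fell 35.4-fold and *E2F2* 17.8-fold, *E2F1* only 1.99-fold, and *E2F3* rose 1.58-fold. The Rb relative *RBL1* (p107) fell 5.29-fold. *RBL2* (p130), which takes over in quiescent cells, went from 1790.1, 2130.3 and 2493 to 2649, 2978 and 2879, a log2 fold change of 0.41 that was called with the size factors used and lost with total-count factors (0.27). Of 6 TOB and BTG antiproliferative genes tested, 3 rose and 2 fell: *TOB1* rose 1.97-fold and *BTG2* 1.86-fold, and *BTG3* fell 2.59-fold.

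Targets of p53 mostly fell and targets of FOXO mostly rose. Of 29 p53 targets tested, 5 rose and 20 fell, with a median of -0.46. *FAS*, the death receptor, fell 10.0-fold, the cytokine gene *GDF15* 3.23-fold and *FDXR*, a mitochondrial reductase, 2.35-fold. Against that direction, *TP53INP1* went from 185, 230.0 and 296 to 858, 939 and 741. Of 20 FOXO targets tested, 14 rose and 2 fell, with a median of 0.43. *CITED2*, a CBP/p300 partner, held 4855, 5036 and 4750.5 normalized counts in DMSO and 11625, 13096 and 12796 in abemaciclib. *TXNIP*, which restrains glucose uptake, rose 2.25-fold, *SESN3*, an inhibitor of mTORC1, 2.63-fold and *TRIB1* 2.88-fold, whereas the insulin receptor substrate *IRS2* fell 3.08-fold.

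Secreted factors linked to senescence were mixed. Of 19 senescence-associated secreted factors tested, 8 rose and 4 fell. *TIMP1*, an inhibitor of metalloproteinases, held 621, 541 and 379.9 normalized counts in DMSO and 5662, 5015 and 5192 in abemaciclib, and *IGFBP3* went from 42.8, 38.8 and 54.2 to 593, 766 and 694. *ICAM1*, an adhesion molecule for leukocytes, rose 8.45-fold. In the BCL2 family, 8 rose and 4 fell of 18 tested. The survival genes *BCL2* and *BCL2L1* rose 2.27-fold and 2.02-fold, and among the death-promoting genes *BID* and *BOK* rose 1.88-fold and 1.78-fold while *BAX* fell 1.99-fold. *MCL1* held 11355, 11153 and 10835 normalized counts in DMSO and 10644, 11578 and 11427 in abemaciclib and was not called.

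Lamina, HMG and variant histone genes mostly fell, unevenly, while replication-dependent histones were mixed. Of 19 lamina and HMG genes tested, none rose and 18 fell, with a median of -1.11. *HMGB2*, an abundant DNA-bending protein, held 19148, 17095 and 17697 normalized counts in DMSO and 513, 577 and 549 in abemaciclib and fell 32.9-fold. *LMNB1*, the B-type lamin whose loss is used as a mark of senescence, held 13539.9, 13645 and 12923 normalized counts in DMSO and 1430.1, 1452 and 1496 in abemaciclib, and the lamin B receptor gene *LBR* fell 5.61-fold. *LMNA*, which encodes lamins A and C, fell only 1.35-fold. Of 13 variant histones tested, 1 rose and 8 fell: *CENPA*, the histone of centromeres, fell 26.6-fold, the linker histone gene *H1-10* 4.74-fold, *H2AX* 5.47-fold, and *H3-3B* 2.15-fold, whereas *H3-3A*, which encodes the same protein, was at 29369 ± 3179 normalized counts in DMSO and 30897 ± 1536 in abemaciclib (mean ± SD) and was called only without DMSO replicate 1 (log2 fold change 0.16). Replication-dependent histone mRNAs mostly lack a poly(A) tail, and how many are counted depends on how a library is primed. Of 49 replication-dependent histones tested, 20 rose and 17 fell, with *H2AC6* rising 2.86-fold and *H2AC20* falling 5.81-fold.

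Genes for DNA methylation fell, and those for histone modification were mixed. Of 9 DNA methylation writers and erasers tested, 1 rose and 8 fell (0 and 8 with total-count factors). *UHRF1*, which brings DNMT1 to newly copied DNA, went from 4175, 5828 and 6942 to 972, 1200.0 and 957, *DNMT1* fell 3.22-fold and *DNMT3B* 2.9-fold. Of 30 Polycomb genes tested, 10 rose and 13 fell (5 and 15 with total-count factors): *EZH2*, the H3K27 methyltransferase, held 3089, 2906 and 3072 normalized counts in DMSO and 396, 378 and 373 in abemaciclib and its partner *PHF19* fell 25.3-fold. Of 18 HDAC and sirtuin genes tested, 11 rose and 5 fell: *HDAC1* and *HDAC2* fell 1.45-fold and 1.46-fold, *HDAC4* 3.33-fold, and *HDAC5* and *HDAC11* rose 1.83-fold and 2.07-fold. Zinc finger genes named ZNF rose more often than they fell. Of 461 C2H2 zinc finger genes named ZNF tested, 196 rose and 67 fell, with a median of 0.21, and *ZNF552* rose from 225, 252 and 247 to 1762, 1775 and 1736. With total-count factors the split was 150 higher and 103 lower of 458.

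Genes of recombination and nucleotide supply fell as well. Of 38 homologous recombination and Fanconi genes tested, 1 rose and 28 fell, among them the Fanconi ubiquitin-conjugating enzyme gene *UBE2T* (5.39-fold). Of 32 nucleotide supply enzymes tested, 1 rose and 27 fell, including *RRM1*, the large subunit of ribonucleotide reductase, which held 11275, 10907 and 10651 normalized counts in DMSO and 3600.5, 3443 and 3574 in abemaciclib and fell 3.09-fold. In excision repair, 10 rose and 17 fell (4 and 22 with total-count factors) of 39 base and nucleotide excision repair genes tested.

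The machinery for RNA processing and protein quality control fell almost as a whole. Of 32 SR and hnRNP splicing factors tested, 1 rose and 28 fell, with a median of -0.79. *HNRNPA2B1* held 117971, 110226 and 113402 normalized counts in DMSO and 36996, 37253 and 36202 in abemaciclib and fell 3.09-fold, *HNRNPD* fell 3.34-fold and *SRSF7* 3.42-fold. The 37 genes of this list held 1.21, 1.23 and 1.28% of all counts in DMSO and 0.595, 0.621 and 0.603% in abemaciclib. Of 40 genes of the nuclear pore and nuclear transport tested, none rose and 34 fell; the importin gene *KPNA2* fell 2.97-fold and the GTPase gene *RAN* 1.84-fold. Of 37 proteasome subunits tested, none rose and 34 fell, with a median of -0.53. The immunoproteasome subunit *PSMB9* fell 3.89-fold and the ATPase subunit *PSMC3* held 21875, 18048 and 16685 normalized counts in DMSO and 8002, 7106 and 7306 in abemaciclib. Of 14 subunits of the CCT chaperonin and prefoldin tested, 1 rose and 11 fell; the chaperonin subunit *CCT5*, needed to fold actin and tubulin, fell 2.03-fold.

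Lists of protein synthesis also leaned downwards. Of 53 ribosome biogenesis factors tested, 8 rose and 35 fell (4 and 38 with total-count factors); the rRNA methyltransferase gene *FBL* fell 3.02-fold and *NCL*, nucleolin, 1.42-fold. Of 41 translation initiation factors tested, 8 rose and 21 fell (5 and 25 with total-count factors) and of 23 cytosolic tRNA synthetases, 4 rose and 16 fell (2 and 17 with total-count factors), with *QARS1* among those that rose (1.67-fold). Of 80 cytosolic ribosomal proteins tested, 4 rose and 22 fell, with a median of -0.17, a share called of 32.5% against 72.6% of genes with a mean of at least 100. Their 82 genes held 9.04, 7.24 and 6.70% of counts in DMSO and 6.61, 6.05 and 6.41% in abemaciclib, where the high value is that of DMSO replicate 1. With total-count factors 50 of them were called lower. *MYC* held 8529, 9299 and 9532 normalized counts in DMSO and 7300.1, 8326 and 8471 in abemaciclib, a small fall (-0.18, adjusted p = 0.02). It was not called without DMSO replicate 2 (-0.17), DMSO replicate 3 (-0.15) or abemaciclib replicate 1 (-0.12). Among its antagonists *MXD4* rose 2.21-fold and *MXD3*, active in S phase, fell 9.1-fold.

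Transcripts of the mitochondrial genome rose, while lists of nuclear genes for mitochondrial proteins were mixed or leaned downwards. Of 13 mitochondrially encoded mRNAs tested, 12 rose and none fell, with a median of 1.04. *MT-ND1*, a subunit of complex I, held 75913, 74351 and 54414 normalized counts in DMSO and 299248, 255187 and 245977 in abemaciclib (adjusted p = 9.27e-49), and *MT-CO1*, of complex IV, held 493123, 455382 and 335640.1 normalized counts in DMSO and 1407191, 1131148 and 1157042 in abemaciclib. The exception was *MT-ND6*, the only mRNA encoded on the light strand, whose reads cannot be told from those of the other strand if counting ignored strand, at 3414 ± 481 normalized counts in DMSO and 3592 ± 391 in abemaciclib (mean ± SD), with an adjusted p of 0.645. The mitochondrial rRNA genes *MT-RNR1* and *MT-RNR2* rose 3.11-fold and 2.56-fold. Together the 15 genes held 3.99, 3.66 and 2.82% of all counts in DMSO and 8.53, 7.22 and 7.44% in abemaciclib. Of 37 nuclear-encoded complex I subunits tested, 10 rose and 14 fell (6 and 18 with total-count factors) and of 16 nuclear-encoded ATP synthase subunits, 2 rose and 3 fell (1 and 7 with total-count factors). The lists of complexes II to IV changed direction with the scaling, from 8 higher and 5 lower to 5 higher and 11 lower with total-count factors. Of 77 mitochondrial ribosomal proteins tested, 4 rose and 48 fell. In mitochondrial DNA maintenance and biogenesis 3 rose and 8 fell (1 and 11 with total-count factors) of 20 tested. *NRF1*, a regulator of nuclear mitochondrial genes, fell 2.19-fold and *TFAM*, which packs and transcribes mitochondrial DNA, 1.45-fold.

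**Figure D4:**
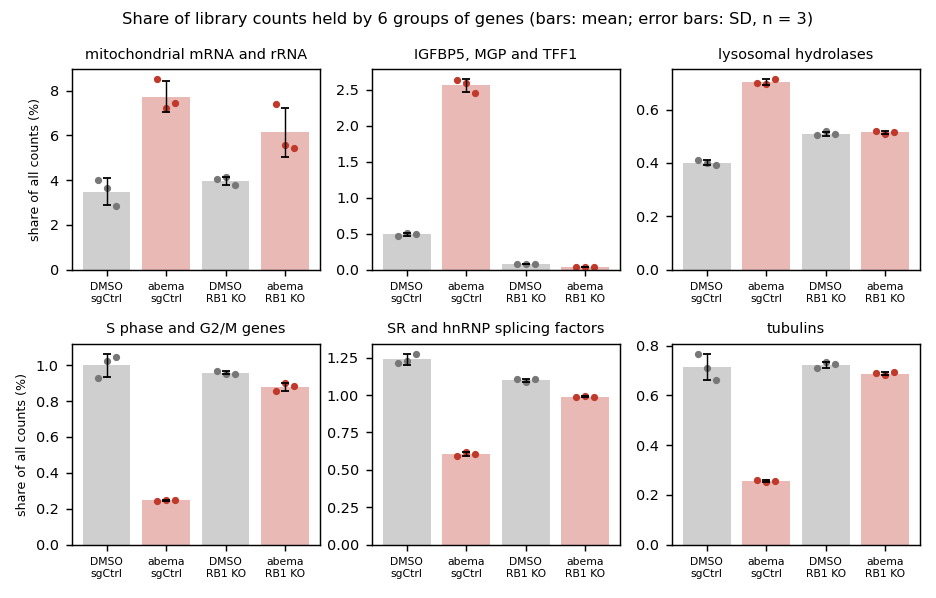
Share of all counts of a library (y axis, percent) held by 6 groups of genes, for DMSO and abemaciclib in sgControl and RB1 knockout cells, with a point per library, bars at the mean and error bars of 1 SD (n = 3). In sgControl cells mitochondrial transcripts went from 3.49 to 7.73%, IGFBP5, MGP and TFF1 from 0.490 to 2.56% and lysosomal hydrolases from 0.401 to 0.703%, while cell cycle genes, splicing factors and tubulins fell.

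Genes of glucose metabolism moved in both directions. Of 28 glycolysis genes tested, 8 rose and 10 fell. *PKM*, pyruvate kinase, held 87914, 78301 and 68772 normalized counts in DMSO and 172707, 154065 and 156439 in abemaciclib, whereas *LDHA*, lactate dehydrogenase A, held 41376, 35172 and 31079.5 normalized counts in DMSO and 16536, 14945 and 15332 in abemaciclib and the enolase genes *ENO1* and *ENO2* fell 1.94-fold and 3.45-fold. *GAPDH*, at 528347 ± 90364 normalized counts in DMSO and 553931 ± 57355 in abemaciclib (mean ± SD), was called higher only without DMSO replicate 1 (log2 fold change 0.20). In the pentose phosphate pathway 2 rose and 2 fell (2 and 4 with total-count factors) of 9 tested, and *TKT*, transketolase, was among those that fell (1.92-fold). Of 28 genes of fatty acid oxidation tested, 13 rose and 6 fell. The peroxisomal genes *ACAA1* and *EHHADH* rose 2.85-fold and 2.7-fold, and *CPT1A*, the gate of fatty acid entry into mitochondria, fell from 42844, 45330.3 and 43341 to 18376, 18458 and 16914.

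Most genes for lysosomal hydrolases rose. Of 50 lysosomal hydrolases tested, 39 rose and 3 fell, with a median of 0.70. *CTSD*, cathepsin D, held 31900.0, 24643 and 20484 normalized counts in DMSO and 68314, 60583 and 63042 in abemaciclib, and *GAA*, the glycogen-degrading α-glucosidase whose promoter is shown above, held 10167, 10022 and 9119 normalized counts in DMSO and 38253, 35716 and 35248 in abemaciclib. *IDUA*, which degrades glycosaminoglycans, rose 5.05-fold, cathepsin F (*CTSF*) 4.13-fold and the sialidase gene *NEU1* 3.56-fold. The list's share of all counts went from 0.410, 0.398 and 0.393% to 0.699, 0.697 and 0.715%. Of 27 lysosomal membrane proteins tested, 17 rose and 5 fell, *LAMP2* 2.28-fold, and of 21 V-ATPase subunits, 15 rose and 1 fell (14 and 4 with total-count factors), with the accessory subunit *ATP6AP1* 3.06-fold higher. Of 38 autophagy genes tested, 20 rose and 8 fell; *WIPI1*, which acts in autophagosome formation, went from 1336, 1372 and 1341 to 5241, 5189 and 5119 and the ubiquitin-like *GABARAPL1* rose 3.06-fold, while the cargo receptor gene *SQSTM1* was called higher only without DMSO replicate 1 (log2 fold change 0.22). Of the transcription factors that govern these genes, *TFE3* rose 1.43-fold and *MITF* 1.79-fold, and *TFEB*, at 352 ± 38.9 normalized counts in DMSO and 429.9 ± 39.1 in abemaciclib (mean ± SD), was called higher only without DMSO replicate 1 (log2 fold change 0.37). The letters TCACGTGA stood in 4 of 45 promoters of lysosomal hydrolases (8.89%), in 3 of 43 promoters of S phase genes (6.98%), which fell, in 1.95% of genes that rose at least 2-fold, in 1.8% of genes that changed by less and in 0.98% of all.

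Most sterol synthesis genes fell. Of 25 sterol synthesis genes tested, 3 rose and 18 fell, with a median of -0.33; *ACAT2* fell 3.25-fold, *HMGCS1* 1.98-fold, and *DHCR7*, a last step of cholesterol synthesis, rose 1.71-fold. *SREBF1*, the master regulator of fatty acid synthesis, held 21559, 21774 and 20762 normalized counts in DMSO and 65320.4, 63935 and 62809.8 in abemaciclib and rose 3.0-fold. Its targets *SCD*, the stearoyl-CoA desaturase, and *FASN*, fatty acid synthase, rose 2.04-fold and 1.24-fold, the elongase *ELOVL3* went from 49.3, 54.6 and 29.6 to 499, 455 and 445, and the desaturase *FADS1* fell 2.69-fold. In the whole list of fatty acid synthesis 11 genes rose and 9 fell of 25 tested, and 8 rose and 10 fell with total-count factors. Of 18 lipid droplet genes tested, 7 rose and 8 fell; *PLIN2*, a coat protein of droplets, fell from 1063, 1046 and 1020.5 to 162, 147 and 181, and *FITM2*, which helps droplets form, rose 3.22-fold. Of 17 genes of lipoproteins and cholesterol efflux tested, 11 rose and 1 fell (11 and 2 with total-count factors). *CLU*, clusterin, held 10838, 9169.7 and 7700.0 normalized counts in DMSO and 75726, 67779 and 67881 in abemaciclib, and *APOD*, an apolipoprotein of secretory epithelium, went from 135, 114 and 78.1 to 1679, 1477 and 1674. *APOA1*, the main protein of high-density lipoprotein, held 1.9, 0.9 and 0.6 normalized counts in DMSO and 168, 109 and 101 in abemaciclib, a ratio of 117 (45.4 to 432 from counting error).

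Genes of the secretory pathway rose more often than they fell. Of 35 chaperones of the endoplasmic reticulum and unfolded protein response genes tested, 23 rose and 5 fell (18 and 8 with total-count factors), with a median of 0.28. *P4HB*, a protein disulphide isomerase, rose 1.6-fold, *DNAJB9* 2.21-fold, *CREB3L1*, a membrane-bound factor for secretory genes, 2.0-fold and *XBP1* 1.43-fold, while the oxidase gene *ERO1A* fell 2.3-fold. Of 31 COPII and COPI coat genes tested, 17 rose and 2 fell (13 and 6 with total-count factors). Targets of the integrated stress response leaned downwards: 9 rose and 13 fell of 27 integrated stress response targets tested. The amino acid transporter gene *SLC7A5* fell from 12366, 12830.0 and 11408 to 2557, 2377 and 2273 and the serine synthesis genes *PHGDH* and *PSAT1* 2.73-fold and 2.72-fold, whereas *NUPR1* rose 2.96-fold. Of 21 cytosolic heat shock genes tested, 6 rose and 14 fell; the small heat shock gene *HSPB8* rose 4.1-fold and *HSP90AA1* fell 1.44-fold.

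Among secreted products, 5 rose and none fell of 5 trefoil factors and AGR proteins tested, with a median of 2.55. *TFF1* held 82895, 67929 and 58531 normalized counts in DMSO and 431974, 379148 and 422535 in abemaciclib and *TFF3*, in the same cluster on chromosome 21, held 13520.3, 11011 and 9422 normalized counts in DMSO and 67661, 59559 and 71334 in abemaciclib. *AGR2*, a disulphide isomerase for mucins, rose only 1.2-fold (log2 fold change 0.26) and its libraries overlapped. The call was lost with total-count factors (0.14), with the sgControl samples alone (0.24), and without DMSO replicate 2 (0.24), DMSO replicate 3 (0.16) or abemaciclib replicate 1 (0.24). The 16 secretoglobins and secreted luminal proteins tested split into 8 higher and 1 lower, and into 7 and 3 of 15 with total-count factors. *MGP*, an inhibitor of calcification, went from 25173, 21589.9 and 17711 to 458454, 406009 and 421532 and *PIP*, prolactin-induced protein, from 304, 182 and 164 to 3816, 3520.2 and 3279.7. Of 9 SERPINA genes and members of the A2M family tested, 9 rose and none fell, with a median of 4.14; the kallistatin gene *SERPINA4* and *SERPINA5* overlap on the same strand and may share reads. Of 28 mucins and genes of O-glycosylation tested, 13 rose and 10 fell (10 and 10 with total-count factors). *MUC1* held 59043, 56099.7 and 46724 normalized counts in DMSO and 145548, 126469.5 and 115439 in abemaciclib, *MUC5B* rose 3.55-fold and *MUC3A* fell 5.32-fold. Not every luminal product followed: *SCGB2A2*, mammaglobin, at 11008 ± 2768 normalized counts in DMSO and 9462 ± 860.3 in abemaciclib (mean ± SD), and *AZGP1*, at 33683 ± 6192 normalized counts in DMSO and 29039 ± 1914 in abemaciclib (mean ± SD), were not called. Both were called lower with total-count factors (-0.34 for each) and without DMSO replicate 3 (-0.37 and -0.31).

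Genes of junctions and the cytoskeleton moved in both directions. Of 23 claudins and tight junction genes tested, 12 rose and 7 fell; *CGNL1*, paracingulin, went from 154, 206 and 169.5 to 5244, 4757 and 4407, its paralogue *CGN* fell 3.0-fold, and *TJP3* rose 2.28-fold. *CDH1*, E-cadherin, held 72504, 79154 and 74988 normalized counts in DMSO and 78151, 80119 and 74191 in abemaciclib and was not called. Of 26 keratins tested, 5 rose and 8 fell: *KRT19* rose 1.51-fold, *KRT8* and *KRT18* fell 1.51-fold and 1.74-fold, *KRT15* went from 219.7, 205 and 224 to 3785, 3116 and 4074 and *KRT81*, a hair keratin, fell 10.9-fold. Of 11 desmosome genes tested, 2 rose and 6 fell, among them *DSC2* (2.89-fold) and *DSG2* (1.99-fold). Of 42 actin cytoskeleton genes and targets of SRF and YAP tested, 8 rose and 21 fell; *ACTB* and *ACTG1* fell 1.59-fold and 1.62-fold, and the matricellular genes *CCN1* and *CCN2* moved apart, *CCN1* rising 5.53-fold and *CCN2* falling 6.43-fold. Of 16 S100 genes tested, 2 rose and 9 fell, with *S100A14* at 132925, 107589 and 103966 normalized counts in DMSO and 57099, 54286 and 59638 in abemaciclib.

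Several tubulins fell. *TUBA1B* held 183024, 154998 and 139002 normalized counts in DMSO and 38944, 35338 and 36841 in abemaciclib, *TUBB* fell 2.49-fold, *TUBA1C* 2.81-fold and *TUBB4B* 2.37-fold. The 24 tubulin genes held 0.767, 0.708 and 0.663% of counts in DMSO and 0.259, 0.250 and 0.254% in abemaciclib. By number of genes the list did not lean, with 8 higher and 7 lower of 23 tested, and 6 and 8 with total-count factors. Of 41 motile cilium genes tested, 15 rose and 7 fell, with *RSPH1*, of the radial spoke, from 116, 100.5 and 99.5 to 609, 613 and 596. Of 53 primary cilium genes tested, 15 rose and 16 fell (10 and 22 with total-count factors).

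Luminal transcription factors rose more often than they fell. Of 35 steroid receptors and luminal transcription factors tested, 21 rose and 6 fell (16 and 7 with total-count factors), with a median of 0.30. *FOXA1*, which opens chromatin for ER, held 18699.8, 20800.2 and 19524 normalized counts in DMSO and 27178, 28025 and 26037 in abemaciclib and rose 1.38-fold (adjusted p = 2.35e-16), *GATA3* rose 1.21-fold, *EHF* 1.84-fold, and *SPDEF* was called higher only without DMSO replicate 1 (log2 fold change 0.14). The retinoid and fatty acid receptors *RARB* and *PPARA* fell 3.64-fold and 2.55-fold. Aldehyde dehydrogenases split into 7 higher and 4 lower of 17 tested, and the retinaldehyde dehydrogenase gene *ALDH1A3* went from 179, 196 and 196 to 1.1, 7.1 and 5.3. Of 21 circadian clock and PAR-bZIP genes tested, 9 rose and 6 fell (7 and 7 with total-count factors). *BHLHE40*, a repressor of CLOCK and BMAL1, held 5492, 5995 and 6434 normalized counts in DMSO and 23772, 27530.2 and 25142 in abemaciclib, *CRY2* rose 2.1-fold and *DBP* fell 2.43-fold.

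Growth factor receptors moved in both directions. Of 18 ERBB, FGFR, MET and RET receptors tested, 8 rose and 6 fell (6 and 6 with total-count factors). *RET*, the receptor for glial cell line-derived ligands, went from 597, 585 and 561 to 3262, 3035 and 2919, while its co-receptor gene *GFRA1* went from 3317, 3587 and 3674 to 791, 770.5 and 699.5. *ERBB2* and *ERBB4* rose 1.75-fold and 2.16-fold, and *EGFR* and *FGFR4* fell 4.56-fold and 2.54-fold. Of 16 genes of the IGF axis tested, 7 rose and 3 fell: *IGFBP5* held 162562, 183967 and 180534 normalized counts in DMSO and 739223, 726706 and 601778 in abemaciclib, *IGF1R* rose 1.66-fold and *IRS1* fell 2.03-fold. The genes *IGFBP5*, *MGP* and *TFF1* together took 0.468, 0.503 and 0.499% of all counts in DMSO and 2.64, 2.59 and 2.46% in abemaciclib.

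Of 30 immediate early genes tested, 16 rose and 10 fell, with a median of 0.68. *FOS* held 254, 524 and 706 normalized counts in DMSO and 3336, 5208 and 5212 in abemaciclib (adjusted p = 1.20e-20), *EGR1* held 1738, 3206 and 3926 normalized counts in DMSO and 15686, 18169.5 and 16076 in abemaciclib and *DUSP1*, a phosphatase that ends MAP kinase signals, held 849.9, 1157 and 1121 normalized counts in DMSO and 7870.2, 10995 and 11036 in abemaciclib. In each of the 3, DMSO replicate 1 was the lowest of the 6 libraries, and no treated library overlapped a control. *FOSL1* went the other way, from 563, 552 and 484 to 15.1, 25.7 and 37. Of 18 ERK feedback genes tested, 6 rose and 9 fell. Of 43 WNT pathway genes tested, 7 rose and 16 fell: *TCF7*, a nuclear effector, fell 24.1-fold and the ligand gene *WNT4* went from 25.1, 21.2 and 17 to 371, 386 and 347. Of 12 hedgehog pathway genes tested, 2 rose and 7 fell (1 and 7 with total-count factors), among them the receptor gene *PTCH1* (3.75-fold) and *GLI3* (1.56-fold). Of 49 TGF-β and BMP pathway genes tested, 16 rose and 15 fell, a balance that became 10 and 20 with total-count factors.

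Immune genes did not move together. Of 44 interferon-stimulated genes tested, 10 rose and 15 fell, with a median of -0.044; within the same family *OAS2* rose 5.3-fold and *OAS3*, a sensor of double-stranded RNA too, fell from 5268, 6572 and 6239.7 to 1130.5, 1021 and 916. Of 19 genes of MHC class I and peptide loading tested, 9 rose and 4 fell; *TAPBP*, tapasin, rose 1.8-fold, *HLA-C* 1.33-fold, and *B2M* was called higher only without DMSO replicate 1 (log2 fold change 0.17). Of 15 MHC class II genes and *CIITA* tested, 4 rose and 1 fell, *HLA-DQB1* 3.78-fold, although *CIITA*, the activator of class II genes, was at 20.5 ± 6.9 normalized counts in DMSO and 17.3 ± 3.8 in abemaciclib (mean ± SD) and not called, and reads of these genes may be shared among near copies. Of 17 complement genes tested, 5 rose and 2 fell: the membrane inhibitors *CD59* and *CD46* rose 2.23-fold and 1.41-fold and *CD55* fell 2.46-fold.

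**Figure D5:**
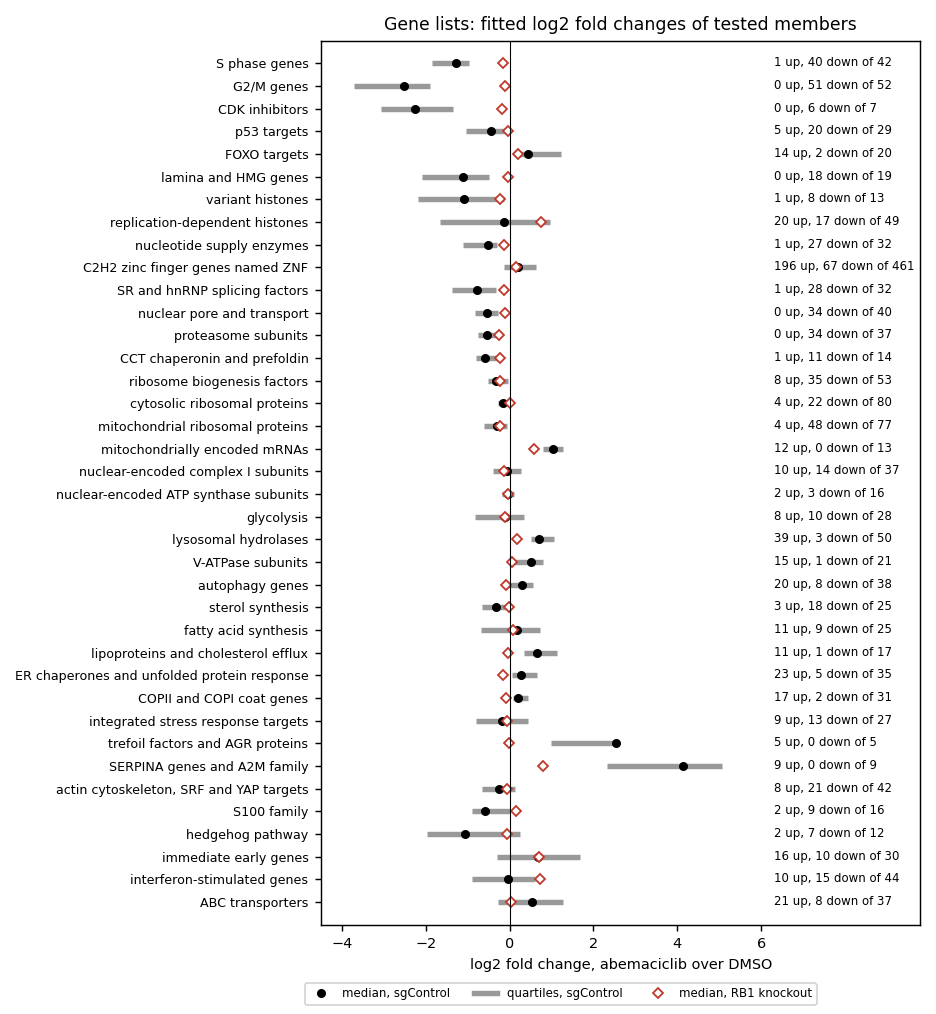
Median (black point) and quartiles (grey bar) of the log2 fold change of abemaciclib over DMSO for the tested members of gene lists in sgControl cells, with the median in RB1 knockout cells as open diamonds and the number of members called up and down at the right. G2/M genes (median -2.52) and CDK inhibitors (-2.26) lie farthest down and SERPINA genes (4.14) farthest up, and the knockout median of the G2/M genes is -0.10.

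Lists of ABC transporters, cytochrome P450 genes, and UGT and sulfotransferase genes held more genes that rose than fell. Glutathione and NRF2 genes and metallothioneins leaned downwards. Of 37 ABC transporters tested, 21 rose and 8 fell, with a median of 0.54; *ABCC3*, an exporter of conjugated compounds, went from 222, 228 and 223 to 2453, 2412 and 2261, *ABCC11* rose 3.38-fold and the lipid transporter gene *ABCA3* 2.34-fold. Of 31 cytochrome P450 genes tested, 15 rose and 5 fell (11 and 5 of 29 with total-count factors) and of 13 UGT and sulfotransferase genes, 6 rose and none fell; *UGT2B15*, which inactivates androgens, went from 207, 215 and 209.8 to 1782, 1786 and 1900.2 and *SULT1A1* rose 2.75-fold. Of 37 glutathione and NRF2 genes tested, 10 rose and 15 fell, *HMOX1*, haem oxygenase, 3.15-fold lower and the cystine transporter gene *SLC7A11* 3.51-fold. Of 4 metallothioneins tested, 1 rose and 3 fell, *MT2A* from 5703, 4659.8 and 3954 to 345, 332 and 304. Iron and haem genes split into 9 higher and 10 lower of 23 tested. *FTL*, ferritin light chain, rose 2.77-fold and *FTH1*, the heavy chain, was called lower only with total-count factors (log2 fold change -0.27) or without DMSO replicate 3 (-0.26). The 286 solute carriers tested split into 95 higher and 84 lower, and into 88 and 96 of 278 with total-count factors.

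Among genes called in sgControl, most called differences between the genotypes were a larger response in cells with *RB1*. The difference between the responses, knockout minus sgControl, was tested for 20932 genes and called in 8668 (41.4%), with the knockout response higher in 4417 (21.1%) and lower in 4251 (20.3%). Of 11297 genes called in sgControl with the difference tested, 7680 (68%) had a called difference, and in 7241 of these the sgControl response was the larger. Choosing genes called in sgControl favours a larger response there, and called differences in other genes were not sorted by size. By list, the difference was called towards a higher knockout response in 51 of 52 G2/M genes, 26 of 32 splicing factors and 21 of 37 proteasome subunits, and towards a lower one in 36 of 50 lysosomal hydrolases, 24 of 35 chaperones of the endoplasmic reticulum and 19 of 31 coat genes. Medians of the fitted log2 fold changes of these lists in the knockout were -0.10, -0.13, -0.26, 0.16, -0.15 and -0.08. Cyclin D1 (*CCND1*), at 1.18 in sgControl, was at -0.057 in the knockout (difference -1.24, adjusted p = 1.13e-57), and *CTSD* was at 1.32 and -0.077 (difference -1.40, adjusted p = 4.50e-14). Untreated knockout cells already held 88393 ± 7336 normalized counts of *CTSD*, above the 63980 ± 3950 of treated sgControl cells (mean ± SD).

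In some genes the knockout changed further, or the difference between the genotypes was not called. The immediate early gene *FOS* changed by 3.21 in sgControl and 4.04 in the knockout, a difference of 0.83 ± 0.48 (SE) that was not called (adjusted p = 0.16), and *EGR1* by 2.49 and 4.18 (difference 1.69, adjusted p = 2.24e-06). The FOXO targets *TRIB1* and *SESN3* rose by 1.53 and 1.39 in sgControl and by 1.44 and 1.36 in the knockout, with differences of -0.084 ± 0.17 (SE, adjusted p = 0.751) and -0.032 ± 0.15 (adjusted p = 0.899). *GPNMB*, a lysosomal glycoprotein, rose by 2.03 and 3.90, a larger change in the knockout (difference 1.87, adjusted p = 4.37e-61). *HMOX1* fell in both, with log2 fold changes of -1.65 and -1.91 (difference -0.26 ± 0.13, adjusted p = 0.092). The mitochondrial share rose in the knockout too, from 4.03, 4.13 and 3.78% to 7.39, 5.56 and 5.44%. Interferon-stimulated genes had a fitted median of 0.73 in the knockout and -0.19 in sgControl, and the difference was called towards a higher knockout response in 25 of 44.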

How the data were processed

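RNA was sequenced from 12 samples in 4 groups of 3. Per the labels and the study's methods, the authors trimmed reads with BBDuk, aligned them to hg38 with STAR 2.7.5b and counted reads per GENCODE gene with featureCounts 2.0.1. They deposited 1 table of raw counts, the unit used here. The labels name a directional kit and the methods a 3′ kit, so differences in gene length were not used. Strand and multimapping settings are not given in the sources used here, and reads of overlapping, antisense or near-identical genes may be shared.

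Of 60656 rows, 44 without a gene name (0.0% of counts) were left out. DESeq2 1.42.0 in R 4.3.3 was fitted to the 12 samples with a term per group and median-of-ratios size factors. Two-sided Wald tests were adjusted by Benjamini-Hochberg after independent filtering, with a threshold of 0.05 and no shrinkage, for abemaciclib against DMSO in sgControl and for the difference of the responses. Adjusted p-values too small for the software to store are not given. The test was first tested on simulated data. edgeR 4.0.16 was an alternative. Other values were computed with Python 3.11.15, pandas 2.3.3, numpy 2.4.6 and scipy 1.17.1 and drawn with matplotlib 3.10.9. Where a named gene had 3 counts or fewer in each library of a group, a ratio of summed counts is given. Its exact 95% binomial interval covers counting error only. With totals of 39907318 to 81636393 counts, counting error matters mainly for weakly expressed genes. The labels call the samples replicates, and p-values measure only the spread between these samples.

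The comparison, the gene lists and the named genes were chosen with earlier results of these data known. Named were *RB1*, the 20 genes per direction with the largest change among called genes with a mean of at least 100 normalized counts and no overlap of replicates, and members of the lists, from those with the 7 largest changes or 4 highest means or from any list of at most 20 genes. Lists defined by a symbol pattern were restricted to protein-coding genes after counts were seen. Some genes that the rule selects are not reported here. Positions are from GENCODE v44 on GRCh38.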

Additional observations from a re-analysis of the deposited data

Results flagged for a closer look

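The response to abemaciclib differed between the genotypes, by the test of the difference itself, in 8668 genes. Among the genes named for the largest changes, 8 were called in opposite directions in the 2 genotypes as well. *BPIFB1*, the lipid-binding protein of mucus, rose in sgControl and fell in the knockout, a difference of -7.162 on the log2 scale (knockout minus sgControl). The other 7 fell in sgControl and rose in the knockout. Their differences were 8.649 for *FAM20C*, the Golgi kinase, 7.997 for the stereocilia motor gene *MYO3A*, 7.435 for *C1QL1*, 6.828 for *TMSB15A*, 6.198 for *TMPO-AS1*, 6.090 for *NEURL1B* and 5.821 for *TYMS*. In that order, their log2 fold changes in the knockout were 0.238, 0.695, 1.081, 1.038, 0.217, 0.264 and 0.15. Most of each difference was thus the fall in sgControl, and several of the rises were slight. *FAM20C* held 2 counts in all in abemaciclib, and its fitted difference is no bound. Groups of 3 were not tested for single samples that stand apart.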

How the results depend on the processing

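The number of genes called in sgControl was 11305 and stayed between 10353 and 11403 with total-count factors, edgeR, other filters, a replicate block or the 6 sgControl samples alone. It was 10287 to 11367 when each library was left out in turn. No gene called in both settings changed sign in any of these. Total-count factors moved the split to 40.1% of calls higher, from 50.2%, and that of the difference between genotypes to 63.8%, from 51.0%, at 8565 calls against 8668. For the difference, leaving out 1 library gave 8044 to 9321 calls, the highest without DMSO replicate 1. Same-numbered DMSO and abemaciclib libraries of sgControl cells showed correlated departures from the mean in replicates 1 and 2 (0.264 and 0.26) but not in replicate 3 (-0.087). Differently numbered pairs ranged from -0.504 (DMSO replicate 1, abemaciclib replicate 2) to 0.484 (DMSO replicate 3, abemaciclib replicate 2). The numbers were therefore not taken to pair these samples. Between the abemaciclib libraries of sgControl and knockout cells all 3 same-numbered pairs correlated (0.163, 0.265 and 0.122) and no other-numbered pair did, but between their DMSO libraries the same-numbered values were -0.226, -0.005 and 0.078. With the replicate block 11059 genes (5557 higher and 5502 lower) and 8515 differences were called. Of 210 counts of list members, total-count factors moved 27 by more than 1.5 times and the block none. None of the named genes reversed direction in any alternative. Total-count factors took 2 of 257 below the threshold (*RBL2* and *AGR2*), the sgControl samples alone 1 (*AGR2*), and edgeR, other filters and the block none. Total-count factors called 4 named genes that were not called with the size factors used, each lower. The cause was not tested.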

Other observations

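Among all genes, 1265 were called in opposite directions in sgControl and knockout cells with a called difference, 609 of them higher and 656 lower in sgControl. The share of counts held by *IGFBP5*, *MGP* and *TFF1* went from 0.080 to 0.037% in the knockout, against 0.490 to 2.56% in sgControl cells. Processed pseudogenes were rarely called, with 22 higher and 63 lower of 893 tested (9.5%).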
